A study of Rattus norvegicus with 15 samples.

Results

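The comparison described here sets Rat1a cells with introduced wild-type MYC against the same cells with an empty vector. Rat1a is an immortalized rat fibroblast line, although the labels call the cells normal primary fibroblasts. The 6 libraries were picked by their titles out of 15 in the series, 3 from the stable line with mouse MYC of wild-type sequence (WT) and 3 from the stable line with empty vector (EV). The other 9 libraries came from lines whose MYC carried an arginine in place of 1 lysine (R149, R158 and R323, named by the residue). All cells grew attached to plastic in high-glucose medium with serum, and no treatment or time is given. The 3 biological replicates of a line measured the spread between its cultures. With 1 stable line for WT and 1 for EV, effects of MYC and other differences between these lines cannot be told apart.

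MYC is a transcription factor that pairs with MAX and binds E-box sequences near gene starts. It is best known for raising genes of ribosome production, protein synthesis, nucleotide synthesis and glucose use, and it also lowers other genes, in part by joining the factor MIZ1. Rat1a cells are a classical host for MYC because they can be transformed by it.

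The count tables name genes by Ensembl identifier only, and 0 identifiers could be paired with a symbol from the reference table used here. Members of the pathways above, the introduced Myc and the markers of fibroblasts were therefore not looked up, and genes are described as groups with 4 shown by identifier. The WT libraries held 38120697, 32783771 and 23046620 counts, and the EV libraries 19185530, 44652491 and 18507149. After thinning to 18507149 counts, WT replicate 1 had 15127 genes detected, against 15969 and 16017 in WT replicates 2 and 3 and 15647 to 16051 in EV. On log2 levels of the 6 libraries, the first principal component held 63.1% of the variance, with WT at 51.2, 37 and 31.6 and EV at -34.8, -39.2 and -45.8. The second held 17.7% and set WT replicate 1, at 37.2, apart from WT replicates 2 and 3, at -20.8 and -26.4. The EV libraries lay between them, from -3.79 to 15.4.

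Wild-type MYC cells differed from EV cells in 26.8% of the genes tested, and most of these differences were under 2-fold. Of 13676 genes tested, 3661 were called at an edgeR adjusted p below 0.05. In WT, 1728 genes were higher (12.6% of those tested) and 1933 were lower (14.1%). The number of higher genes was 1067 without EV replicate 2 and 1048 without EV replicate 3. Levels are given as CPM, the usual counts scaled to a common library total, so each change is relative to the other RNAs of the library. In RNA from whole cultures, fewer cells with a transcript and less of it per cell cannot be told apart.

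Rises and falls differed in size. The median rise was 1.48-fold (log2 fold change 0.57) and the median fall 1.73-fold (log2 fold change -0.79). Of the higher genes, 86% rose by less than 2-fold and 53.7% by less than 1.5-fold. Of the lower genes, 64.3% fell by less than 2-fold and 31.8% by less than 1.5-fold. At least 2-fold changes were called for 242 higher genes (1.77% of those tested) and 690 lower genes (5.05%), so 74% of these 932 genes were falls. Between 2- and 4-fold there were 146 rises and 477 falls, between 4- and 8-fold 45 and 133, and from 8-fold 51 and 80. A stricter test, which asks whether the fold itself exceeds 2, called 60 genes higher and 143 lower (edgeR glmTreat, adjusted p below 0.05). A further 387 genes differed by at least 2-fold without being called. Over all genes tested the median log2 fold change was 0.0092, and the 10th and 90th percentiles were -0.78 and 0.56.

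**Figure D1:**
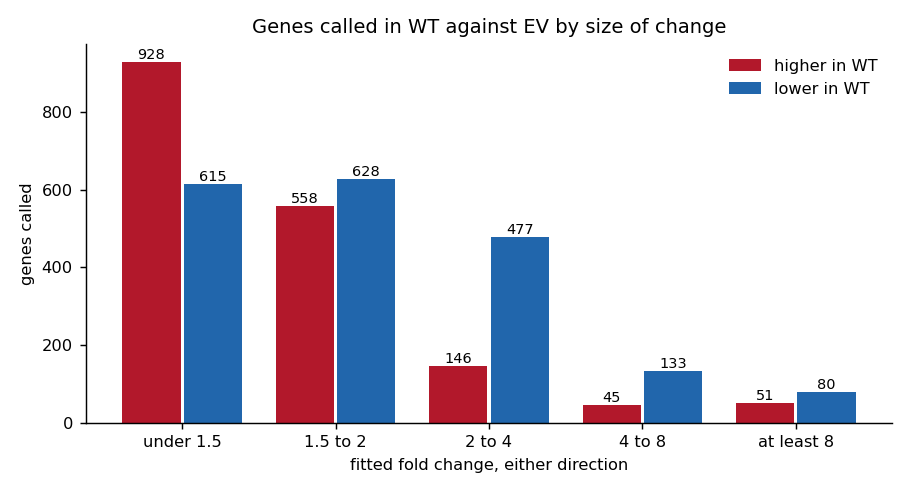
Genes called in WT against EV, counted by fitted fold change, with rises (left bar of each pair) and falls (right bar). Rises are more numerous than falls below 1.5-fold (928 against 615) and less numerous in every class from 1.5-fold up (146 against 477 between 2- and 4-fold).

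The size of the change depended on how abundant a transcript was in EV cells. Genes tested were ranked by mean EV level and divided into quintiles. Genes that rose by at least 2-fold were mostly scarce in EV cells, with 163 of the 242 (67.4%) in the lowest quintile, which reached up to 3.1 CPM. Genes near absent in EV passed the filter on low counts only through other lines, so the filter bears on this share. Genes that fell by at least 2-fold reached further up the range, with 213 (30.9%) in the lowest quintile and 243 in the second quintile, between 3.1 and 14.7 CPM. Without the filter, quintiles were drawn over 20143 genes, and the lowest held 45 of 277 rises of at least 2-fold (16.2%) and 0 such falls. The genes added have few counts, so that quintile covers lower EV levels, where a fall can hardly be called. Its counts are not comparable with those of the lowest quintile above. With the filter, the counts of the lowest quintile moved with single libraries. Such falls there were 127, 130 and 125 without WT replicate 1, EV replicate 2 and EV replicate 3, and such rises were 105 without WT replicate 2 and 107 without EV replicate 3. Rises outnumbered falls there without WT replicate 1 (157 and 127) and without EV replicate 1 (176 and 146). In the 3 highest quintiles together, from 14.7 CPM, 40 rises and 234 falls reached 2-fold.

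In the fourth quintile, from 35.8 to 81.4 CPM, 6 rises and 70 falls reached 2-fold, and the rises were 12 without WT replicate 3 and 11 without EV replicate 1. In the highest quintile, from 81.5 to 11630 CPM, 6 genes rose by at least 2-fold (0.219% of the quintile) and 57 fell (2.08%), and the rises were 10 without WT replicate 2 and 10 without EV replicate 1. Called genes of any size numbered 393 higher (14.4%) and 433 lower (15.8%) there. This order turned when WT and EV libraries were fitted alone, with 418 higher and 404 lower, and the higher genes were 224, 229 and 231 without WT replicate 1, EV replicate 2 and EV replicate 3. The called rises of the highest quintile had a median log2 fold change of 0.48, and the called falls -0.58. In the lowest quintile, where 196 genes (7.17%) were called higher and 222 (8.12%) lower, these medians were 1.83 and -1.97. Fitted with WT and EV libraries alone, the lowest quintile had 196 higher and 343 lower genes. The order turned there without WT replicate 1, with 174 higher and 128 lower genes, and without EV replicate 1, with 187 and 147. Falls of at least 2-fold outnumbered such rises in the highest quintile in each of these fits. In the second quintile the calls were uneven, with 288 genes (10.5%) higher and 457 (16.7%) lower. The higher genes were 181 without EV replicate 2 and 165 without EV replicate 3, with 325 and 318 lower.

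**Figure D2:**
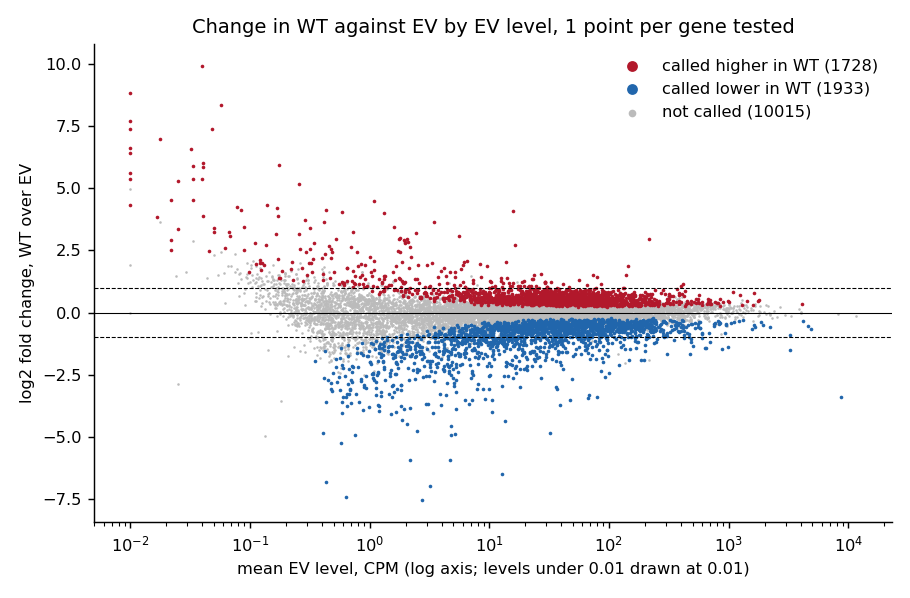
Log2 fold change of WT over EV for each gene tested against its mean EV level in CPM on a log axis, with called rises in red, called falls in blue, other genes in grey and dashed lines at 2-fold either way. Large rises cluster at the left, where the EV level is low, while large falls extend further to the right; the called genes number 1728 and 1933.

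The spread of changes over all genes of a quintile narrowed as the EV level rose. The 10th and 90th percentiles of the log2 fold change were -1.35 and 1.11 in the lowest quintile, and -0.99 and 0.51 in the second. They were -0.61 and 0.5 in the third, -0.52 and 0.48 in the fourth and -0.52 and 0.43 in the highest. Errors narrowed with it, since the median standard error of a log2 fold change was 0.484 in the lowest quintile and 0.128 in the highest, and the share of the narrowing that counting error makes was not tested. The centre moved little, with median log2 fold changes of -0.008, -0.076, 0.014, 0.038 and 0.048 from the lowest quintile to the highest.

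Because the EV libraries set both the level and the change, genes were also ranked by 1 EV library while the change was taken from WT against the other EV libraries. With fewer libraries, fewer genes were called. In the highest quintile, rises of at least 2-fold numbered 12, 7 and 9 and such falls 58, 59 and 56 when EV replicates 1, 2 and 3 gave the level. In the lowest quintile, 155, 117 and 108 rose and 167, 140 and 122 fell. The excess of large falls among abundant transcripts was thus present under each of these rankings.

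**Figure D3:**
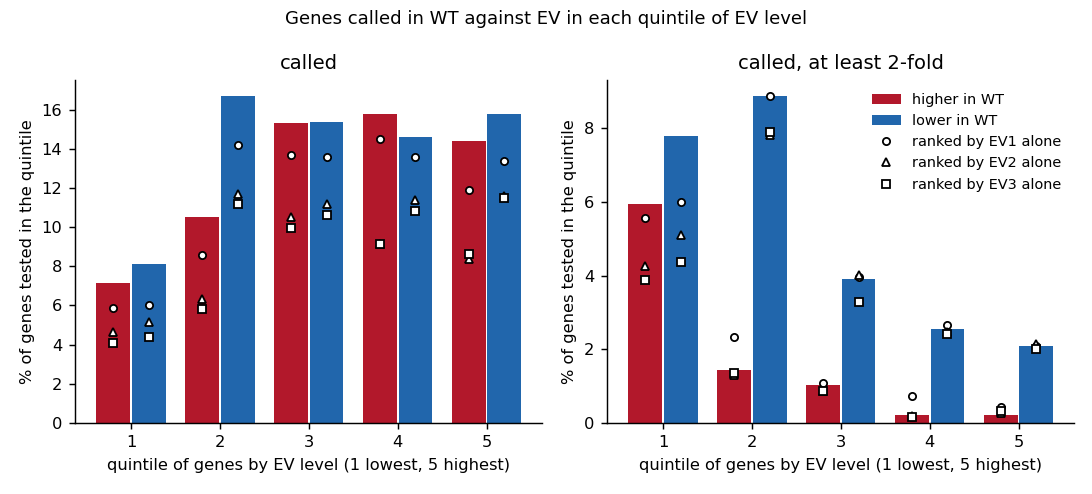
Share of genes called higher (left bar) and lower (right bar) in WT in each quintile of EV level, for all called genes and for those changed by at least 2-fold. Open symbols give the shares when 1 EV library set the ranking and the others the change; in the highest quintile the 2-fold bars stand at 0.219% and 2.08%.

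Among the most abundant transcripts, large falls outnumbered large rises when each was judged at its own high level. Of 2168 genes with at least 100 CPM in EV, 39 were called at least 2-fold lower in WT. Of 2261 genes with at least 100 CPM in WT, 12 were called at least 2-fold higher. These groups were chosen by WT and EV values, so their levels in these lines are a description.

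The 39 abundant genes that fell had a median level of 80.2, 83.4 and 107 CPM in the WT libraries, against 213, 209 and 237 CPM in the EV libraries. Their levels summed to 6482, 6118 and 7372 CPM in WT and to 22097, 22457 and 25706 CPM in EV. The largest single fall of any called gene, 7808 CPM between the means, is within these sums, so 1 gene weighs heavily on them. The WT and EV ranges did not overlap for any of the 39, a pattern held by 44.4% of all genes tested, and all 39 were called again when each of the 6 libraries was left out in turn. Their log2 fold changes ran from -3.38 to -1.02, with a median of -1.29. In the mutant lines, whose levels did not enter the choice although their spread entered the fit behind the calls, the 39 genes summed to between 5339 CPM and 9132 CPM per library. By this sum the R158 libraries reached highest, at 9132, 7144 and 9048 CPM. By the median of the 39 genes they overlapped R323, with 93.2, 92.6 and 112 CPM in R158 and 86.4, 99.8 and 101 CPM in R323. The EV libraries chose these genes, so the mutant levels are not set against them.

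The 12 abundant genes that rose had a median level of 196, 219 and 348 CPM in WT, against 89.8, 85.6 and 87.1 CPM in EV. Their levels summed to 3805, 5875 and 7250 CPM in WT and to 1631, 1787 and 1703 CPM in EV, so WT cultures differed from each other by far more than EV cultures did. WT and EV libraries did not overlap for 9 of the 12, and 10 were called without each of the 6 libraries in turn. Over all 242 rises of at least 2-fold these shares were 89.7% and 66.1%, and 21.4% of all genes tested were higher without overlap. In the mutant lines the sums ran from 3145 to 4043 CPM, and 9 of the 12 had a mean of at least 100 CPM in all 3 mutant lines.

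At the other end of the range, a few transcripts were near absent in one line and present in the other. A mean under 0.1 CPM in EV and of at least 1 CPM in WT was found for 15 genes, all called higher. WT and EV did not overlap for 14 of them, and 13 were called without each of the 6 libraries in turn. Of all genes tested, 12.6% were called higher and 21.4% were higher without overlap, and the choice by level favours both. The 15 genes are therefore only described. They summed to 54.5, 122 and 119 CPM in WT and to 0.959, 0.459 and 0.322 CPM in EV. Most of the WT sums came from 2 genes described below. ENSRNOG00000052880 gave 17.9, 66.5 and 65.7 CPM and ENSRNOG00000008465 gave 14.5, 19.3 and 16.9 CPM. WT replicate 1 was the lowest of the WT libraries, and 1 of the 15 genes lay under 0.1 CPM in it. At least 1 CPM was reached by 9 of the 15 in WT replicate 1 and by 13 in each of WT replicates 2 and 3. In EV replicates 1, 2 and 3, 8, 14 and 15 of them lay under 0.1 CPM. The reverse pattern, under 0.1 CPM in WT and at least 1 CPM in EV, was found for 10 genes, all called lower without each of the 6 libraries in turn. Their choice by level favours such calls too, and 14.1% of all genes tested were called lower. The 10 genes summed to 0.463, 0.883 and 0.554 CPM in WT and to 26.6, 20.1 and 20.5 CPM in EV.

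Both groups were then read in the mutant lines. Of the 15 genes present in WT, 4 had a mean of at least 1 CPM in all 3 mutant lines and 8 in none of them. Of the 10 genes present in EV, 0 had a mean of at least 1 CPM in any mutant line. Their summed level per mutant library ran from 0.99 CPM in R149 replicate 1 to 4.4 CPM in R158 replicate 1. WT and EV values chose both groups, so these levels are a description.

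The largest changes are shown by identifier, taken as the largest fitted folds among called genes with a mean of at least 1 CPM over the 6 libraries and no overlap between WT and EV. ENSRNOG00000052880 had the largest rise, with 17.9, 66.5 and 65.7 CPM in WT against 0, 0.0655 and 0.0537 CPM in EV. WT replicate 1 was far below the other WT libraries. The log2 fold change was 9.94 ± 0.69 (SE from the fit of all 15 libraries, 3 in WT and 3 in EV), with an edgeR adjusted p of 3.1e-07. It rests on 4 counts over the EV libraries, and the ratio of pooled WT to EV counts per total was 977 (95% interval 381 to 3587, counting error only). Without EV replicate 2 the log2 fold change was 10.71. In the mutant lines its mean was 0.0201 CPM in R149, 0.074 CPM in R158 and 0.0389 CPM in R323.

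ENSRNOG00000008465 had 14.5, 19.3 and 16.9 CPM in WT, against 0.151, 0.0218 and 0 CPM in EV. The 3 WT cultures were close to each other. The log2 fold change was 8.35 ± 0.37 (SE from the same fit, edgeR adjusted p 5e-09). The pooled ratio was 347 (95% interval 135 to 1274, counting error only), again on 4 EV counts. Without EV replicate 1 the log2 fold change was 9.78 and without EV replicate 2 it was 7.69, both further from 8.35 than the SE. Unlike the first gene it was present in every mutant library, between 14.8 and 23.7 CPM.

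ENSRNOG00000060528 had the largest fall, with 0, 0 and 0.0426 CPM in WT against 1.77, 3.62 and 2.79 CPM in EV. A single count in WT replicate 3 was the only one in the WT libraries, against 253 over EV. The pooled level was 289-fold lower in WT (95% interval 51.3 to 11446, EV over WT, counting error only), with an edgeR adjusted p of 1.7e-05. In the mutant libraries it ran from 0 to 0.184 CPM.

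ENSRNOG00000024433 had 0, 0.0589 and 0 CPM in WT, against 4.64, 2.31 and 2.63 CPM in EV. It rested on 2 counts in WT and 247 in EV, a pooled level 141-fold lower in WT (95% interval 38.6 to 1170, EV over WT), with an edgeR adjusted p of 7.2e-06. The mutant lines were split for this gene, with means of 0.713 ± 0.035 CPM in R149 and 0.65 ± 0.271 CPM in R158, and 0.0188 ± 0.0325 CPM in R323 (SD, n = 3 each). R323 was thus near the WT level of 0.0196 ± 0.034 CPM, while R149 and R158 lay between WT and EV, whose mean was 3.2 ± 1.26 CPM. These differences between lines were not tested here.

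**Figure D4:**
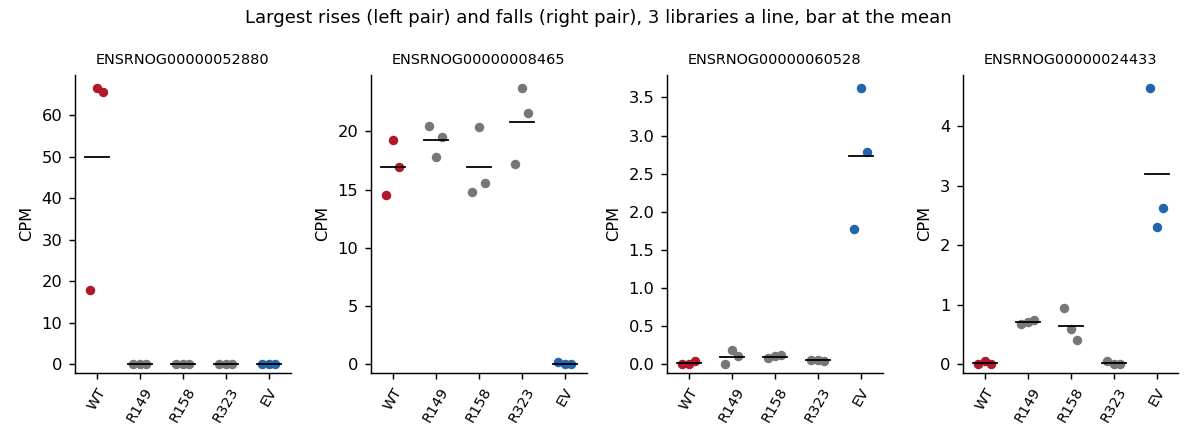
CPM of the genes with the 2 largest rises and 2 largest falls, 1 point per library and a bar at the mean of 3, with WT at the left, the mutant lines in grey and EV at the right. The 4 were chosen among genes without overlap between WT and EV, and ENSRNOG00000052880 is high in WT alone, at 17.9 to 66.5 CPM.

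The changes moved a sizeable part of the RNA pool. Genes called higher held 19.1%, 18.9% and 18.1% of all counts in WT, against 13.2%, 13% and 12.7% in EV. Genes called lower held 9.75%, 10.2% and 10.8% in WT, against 16.4%, 17.1% and 18% in EV. The same libraries chose the genes, so these shares are a description. The falls were more concentrated in few genes than the rises. Summed over falling genes, WT was lower by 66129 CPM, of which the single largest fall made up 11.8%, the 10 largest 27.2% and the 100 largest 53.8%. Summed over rising genes, WT was higher by 59000 CPM, with 2.48% from the single largest rise, 14% from the 10 largest and 42% from the 100 largest.

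The share of the most abundant transcripts did not pass a test between WT and EV. The 10 most abundant genes of each library held 5.02%, 4.77% and 5.26% of counts in WT and 5.54%, 5.97% and 6.38% in EV. WT and EV did not overlap, and the exact two-sided permutation p was 0.1, the smallest that 3 against 3 libraries allow (0.3 after Benjamini-Hochberg adjustment over 3 such measures). The 100 most abundant genes held 19.3%, 18.9% and 19.8% in WT and 19.7%, 20.2% and 20.7% in EV, which overlapped (exact permutation p 0.2). The number of genes that together held 50% of counts was 784, 839 and 814 in WT and 835, 816 and 797 in EV (exact permutation p 0.9).

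Called changes were similar in direction from culture to culture. Among called genes, WT and EV libraries did not overlap for 1655 of the 1728 higher genes (95.8%) and 1886 of the 1933 lower genes (97.6%). Among all genes tested, 21.4% were higher and 23% lower without overlap. Of the genes changed by at least 2-fold, 217 of 242 rises and 689 of 690 falls did not overlap. The same libraries chose the called genes, which favours such genes, so these shares are a description. Consistency is read from the left-out libraries below. By the share of genes at least 2-fold apart, differences between WT and EV libraries were larger than those within a line. Between a WT and an EV library this share was 8.64% to 17.7%. Within a line it was 1.86% to 8.06% for WT and 1.37% to 5.23% for EV, and the 8.06% belonged to WT replicates 1 and 3. The median absolute log2 difference was 0.288 to 0.448 between lines and 0.121 to 0.291 within a line, so these ranges met. The 0.291 belonged to WT replicates 1 and 3.

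A direct check was made on libraries that took no part in the calls. Genes were called with the WT and EV libraries of 1 replicate number left out, and then read in those 2 libraries, so that no library was used for both. With number 2 left out, 673 genes were called higher and 914 lower, and in the left-out libraries 99.9% and 100% of them had the same direction. With number 3 left out, 972 and 1158 genes were called, and 99.6% and 99.5% had the same direction. With number 1 left out, 1040 and 1341 genes were called, and 93.1% and 95.8% had the same direction. Over all genes tested, the left-out WT library was higher than the left-out EV library for 49.4% to 51.3% of genes.

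The left-out libraries also gave the size of the change without the choice of genes bearing on it. Genes called higher had a median log2 difference of 0.56, 0.66 and 0.57 in left-out replicates 1, 2 and 3, against fitted medians of 0.69, 0.77 and 0.7 in the libraries that chose them. Genes called lower had -0.77, -0.92 and -0.84, against -0.86, -1.02 and -0.97. The left-out differences use a prior count of 2, which makes differences of low genes smaller. They were smaller than the fitted medians in all 6 cases, by 0.09 to 0.13 on the log2 scale. The genes called higher held 8.68%, 7.2% and 10.7% of the left-out WT libraries and 6.03%, 4.61% and 7.43% of the left-out EV libraries. Genes called lower held 7.72%, 4.2% and 5.76% of the left-out WT libraries and 12.8%, 8.3% and 10.7% of the left-out EV libraries.

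Large rises were the least stable group in replicate 1. Called without replicate 1, 277 genes rose by at least 2-fold with a median log2 fold change of 1.97, and in WT and EV replicates 1 their median difference was 0.93, with the same direction in 84.1%. For replicates 2 and 3, the 154 and 184 large rises had left-out medians of 1.44 and 1.4, against 1.53 and 1.43 where chosen, and all had the same direction. Large falls had the same direction in 98.5%, 100% and 99.8% for left-out replicates 1, 2 and 3. Their left-out medians were -1.57, -1.35 and -1.28. The genes chosen differ between the left-out numbers, so these medians do not rank the replicates on the same genes. The lowest quintile of EV level held 176, 74 and 94 of the large rises called without replicates 1, 2 and 3. The part of this in their medians was not tested.

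**Figure D5:**
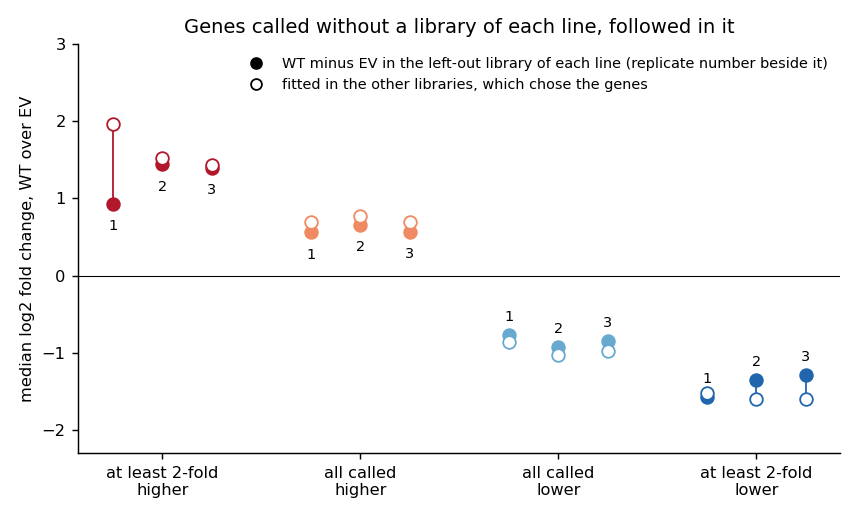
Median log2 fold change of WT over EV for genes called without the WT and EV libraries of 1 replicate number. Filled points are the difference in the left-out libraries, with the number beside each, and open points the fitted value in the libraries that chose the genes; the left-out value for large rises is 0.93 for replicate 1 and 1.44 and 1.4 for replicates 2 and 3.

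WT replicate 1 lay furthest from EV for most called genes. It was the highest WT library for 1020 of the 1728 higher genes (59%) and the lowest for 1107 of the 1933 lower genes (57.3%). Over the 690 falls of at least 2-fold, its median lay -1.8 log2 units from the EV mean, against -1.44 and -1.34 for WT replicates 2 and 3. Over the 242 rises of at least 2-fold its median was 1.53, against 1.66 and 1.69, so there it was the lowest. On the EV side, EV replicate 3 was the library furthest from WT for 45.4% of higher and 48.9% of lower genes. WT replicate 1 also had the fewest genes detected at equal depth, as given above, and the part of this in its position was not tested.

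Leaving out 1 library at a time set how many calls each culture carried. Of the 1728 higher genes, between 1030 (without EV replicate 3) and 1456 (without WT replicate 3) were called again, and 823 (47.6%) were called in all 6 fits. Of the 1933 lower genes, between 1337 and 1623 were called again, without the same libraries, and 1121 (58%) in all 6. Among changes of at least 2-fold, 160 of 242 rises (66.1%) and 510 of 690 falls (73.9%) were called in all 6. DESeq2 and limma-voom both called 1654 of the higher genes (95.7%) and 1905 of the lower genes (98.6%).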

How the data were processed

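The deposited values were raw counts per rat Ensembl gene, 1 table per library, with no normalization. Stranded dUTP mRNA libraries were made, per the labels' protocols. TopHat2 2.1.0 and build Rnor_6.0 are named in the submitters' processing notes. How reads were assigned to genes, with which strand option and gene models, is not given in the sources used here, so genes with near-identical copies or overlapping neighbours are uncertain.

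Of 32545 identifiers, 12402 were at 0 in all 15 libraries. Counts were filtered with filterByExpr (minimum count 10), which kept 13676 genes with 99.97% of WT and EV counts, and scaled with TMM factors. All 15 libraries entered 1 edgeR 4.0.16 quasi-likelihood fit (R 4.3.3) with line as the only term; the contrast was WT minus EV with Benjamini-Hochberg adjustment over all genes. The biological coefficient of variation was 16.1%. Standard errors were taken from the fitted change and its F statistic. Log2 levels per library used a prior count of 2. The procedure was also run on simulated counts. These held far fewer changed genes than were called here and no outlying library, so that run is not used as support. Alternatives used DESeq2 1.42.0 and limma 3.58.1.

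The comparison and lists were chosen with earlier results of these data known. The rule for genes shown was written for symbols; without them it gives the 2 largest rises and 2 largest falls by identifier. The 31 gene lists, the cell type markers and the promoter motif were not run, since 0 identifiers matched a symbol. Chi-square per degree of freedom between replicates was 7.76 to 62.2, so none was counted as a duplicate. P-values set the difference of WT and EV, 1 line each, against the spread between cultures within lines, estimated over all 15 libraries. Intervals cover counting error only. Deviations from the line means correlated by 0.15, 0.099 and 0.21 between WT and EV libraries of equal number. Between those of unequal number they correlated by -0.17 to 0.027. The labels do not say that the numbers mark a shared batch, so the main fit had no replicate term. Whether the numbers pair the libraries was not tested.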

Additional observations from a re-analysis of the deposited data

How the results depend on the processing

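Rises were fewer than falls in all 19 alternative fits, over all called genes and among those changed by at least 2-fold. A fit with the replicate block gave 2363 higher and 2621 lower genes, or 2037 and 2314 with WT and EV libraries alone, and no count over all genes moved by over 1.5 times. Without 1 library at a time, 1048 to 1605 genes were called higher and 1351 to 1758 lower, of which 183 to 282 and 534 to 734 changed by at least 2-fold, and 2393 to 3336 called genes had no overlap. Such fits hold fewer libraries. With R149 replicate 1 removed from the shared fit, 1959 genes were called higher and 2269 lower, 293 rose by at least 2-fold and 4051 called genes had no overlap. Without the WT and EV libraries of number 1, 2 and 3, added after seeing the data like the fits without R149 replicate 1 and the test of the fold, 1040, 673 and 972 genes were called higher. Without numbers 2 and 3, 914 and 1158 were called lower and 1585 and 2130 called genes had no overlap, and 154 rose by at least 2-fold without number 2. A test of the fold against 2 (TREAT) called 60 rises and 143 falls.

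The width between the 10th and 90th percentiles of the log2 fold change in the lowest quintile of EV level was 2.46. It was 4.82 without a filter on low counts, which adds genes with few counts, 2.26 with WT and EV libraries alone, 2.27 with the replicate block on these, and 2.12 after thinning. It was 2.51 to 2.82 without 1 library at a time, 2.65, 2.56 and 2.72 without those of number 1, 2 and 3, and 2.55 without R149 replicate 1. With the level from EV replicate 1, 2 or 3 it was 2.8, 2.72 and 2.56, and with 10 groups 2.57. In the highest quintile it was 0.95, with 0.89 to 1.02 without 1 library, 0.97 without number 3 and 1 with the level from EV replicate 1. The cause of these shifts was not tested. Of 190 counts of called genes per quintile, 140 stayed within 1.5 times, 45 were lower and 5 higher. In the lowest quintile, called falls (222) were 343 to 346 in fits of WT and EV alone, 360 without R149 replicate 1 and 0 without the filter, with 45 rises. Without the filter that quintile covers lower EV levels, where a fall can hardly be called. In the highest quintile rises outnumbered falls also with the replicate block (597 and 558, or 540 and 483 with WT and EV alone) and without the filter (572 and 565). The 4 genes shown were called under every alternative, with adjusted p of at most 0.0033, but their fitted sizes rest on few counts and moved. The log2 fold change of ENSRNOG00000052880 (9.94) was 8.89 to 10.71, of ENSRNOG00000008465 (8.35) 7.28 to 9.88, of ENSRNOG00000060528 (-7.56) -9.58 to -5.29 and of ENSRNOG00000024433 (-6.99) -9.87 to -5.31. The smallest sizes came with a prior count of 2, and the largest sizes of both falls from fits that leave WT with 0 counts.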

Other observations

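WT cultures were more spread than EV cultures. The median SD of log2 level over 3 libraries was 0.194 in WT and 0.148 in EV, and the SD was larger in WT for 62.2% of genes tested. For the 690 genes that fell by at least 2-fold the medians were 0.382 in WT and 0.248 in EV, while for the 242 that rose by at least 2-fold they were 0.339 in WT and 0.405 in EV. WT replicate 1 differed from the mean of WT replicates 2 and 3 by a median of 0.257 log2 units over all genes tested, and WT replicates 2 and 3 differed from each other by 0.159.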
